A study of Rattus norvegicus with 4 samples.

Results

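P11-only regions beside constant open chromatin are stretches of the rat genome that were called open in both P11 libraries and in neither E21 library, and that lie within 5 kb of a region called open in all 4 libraries. Open chromatin regions (OCRs) of the 4 lists on the 20 numbered chromosomes were merged where they overlapped by at least 1 bp, which gave 224715 consensus regions. Of these, 81097 were constant, that is present in every library, and 28103 were P11-only (12.5% of all regions). Chains of at least 3 P11-only regions with gaps of at most 12.5 kb took up 4308 of the P11-only regions. Of the 23795 outside such chains, 9633 lay within 5 kb of a constant region, edge to edge, and 14162 lay farther away. The 9633 regions made up 4.29% of the consensus regions. All of them are described, with no filter on signal. Presence, absence and distance chose them, so those values are given as descriptions and support nothing.

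Open chromatin is DNA that is not tightly packed around nucleosomes, so that transcription factors can reach it. Promoters of widely used genes tend to stay open through development, while distal enhancers open and close as a neuron matures, and enhancers often lie close to one another and to promoters. Retinal ganglion cells (RGCs) send their axons through the optic nerve to the brain, and they lose most of their capacity to grow axons around birth.

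The RGCs came from retinas of Sprague Dawley rats on day 21 of embryonic life (E21) and 11 days after birth (P11), with no genotype or treatment beyond age. They were purified by immunopanning, first against macrophages and then for Thy1, a surface protein of RGCs. Each stage had 2 libraries of 300000 frozen cells, and each library pooled the animals of a litter of its own. ATAC-seq, in which a transposase inserts sequencing adapters into accessible DNA, was run by a sequencing centre. With no annotation of the lists' genome build used here, the labelled cell type was not checked against marker genes. In bulk libraries a region open in some of the cells and a region weakly open in all of them cannot be told apart.

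The lists held 125917 and 154394 OCRs at E21 and 154772 and 166702 at P11. The genome-wide background, which is proportional to depth, was 4.80 and 5.03 fragments in the E21 libraries, against 4.30 and 4.17 at P11, which makes the P11 pair the shallower. A comparison of 2 with 2 libraries has 3 splits, and the smallest p that the exact permutation test can give is 0.333. At this p the stages may still differ.

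The 9633 regions lay at a median of 1897 bp from their constant neighbour (quartiles 780 and 3388 bp, range 2 to 4999 bp). They were densest shortly beyond the neighbour's edge. The first 200 bp held 2.53% of them per 100 bp, the stretch from 200 to 500 bp held 3.78%, and the stretch from 3 to 4 kb held 1.48%. In all, 1579 (16.4%) lay within 500 bp and 2951 (30.6%) within 1 kb. The constant neighbour lay on the side of lower coordinates for 4809 regions and on the side of higher coordinates for 4824, so the sides were nearly even. A second constant region lay within 5 kb on the opposite side of 1260 of them (13.1%).

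E21-only regions chosen by the mirrored rule had the same shape of distribution but sat slightly farther out. There were 5459 of them, from 17102 E21-only regions (7.61% of all regions), with a median distance of 2105 bp and 26.7% within 1 kb. The share of regions outside chains that lay beside constant chromatin was 40.5% for P11-only regions (95% Wilson interval 39.9 to 41.1) and 33.7% for E21-only regions (33.0 to 34.4). These intervals cover counting error only. The order of the shares depended on the strength of the OCRs used. With OCRs of at least 4-fold enrichment, 21.2% of P11-only and 25.1% of E21-only regions lay beside constant chromatin, and the P11-only regions were the fewer, 3472 against 3863.

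**Figure D1:**
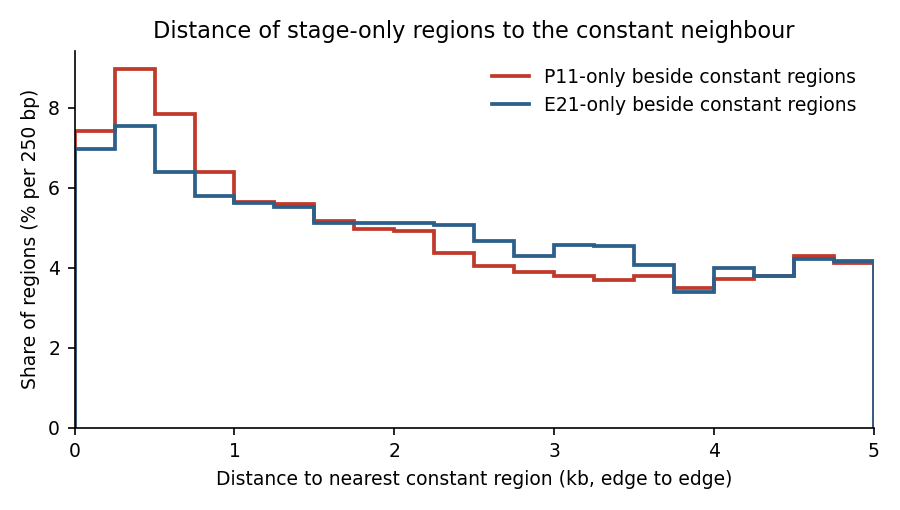
Share of regions per 250 bp of distance to the nearest constant region, in kb from edge to edge, for the 9633 P11-only regions (red) and the 5459 E21-only regions (blue) beside constant chromatin. Both lines are highest from 0.25 to 0.5 kb, where the P11-only regions reach 8.98% per 250 bp, and decline to about 4 kb.

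At the limit of 5 kb the choice cut through a flat part of the distribution. The last 250 bp inside the limit held 397 regions, at 4752 to 4999 bp, and the first 250 bp outside it held 353, at 5001 to 5250 bp. Their median ranks by −log10 q within the library, as percentiles from 0 to 100, were 34.5 and 34.8 in P11 replicates 1 and 2 inside the limit and 38.9 and 37.3 outside it. Median widths were 429 and 428 bp.

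The regions were weak to middling members of the P11 lists. Their median rank by −log10 q was 35.9 in P11 replicate 1 and 36.1 in replicate 2, a mean of 36.0 ± 0.13 points (SD, n = 2). The median fold enrichment at the summit was 3.77 and 3.93, and the median summit pileup, the number of fragments stacked at the summit, was 28 and 29. A −log10 q of at least 5 was reached in both P11 libraries by 6922 regions (71.9%) and in neither by 463 (4.81%). Only 242 (2.51%, 2.22 to 2.84) ranked above the percentile of 75 in both libraries, against 537 (3.79%, 3.49 to 4.12) of the P11-only regions farther away.

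Compared with the P11-only regions farther away, those beside constant chromatin had more fragments but a lower fold. The distant regions had a median pileup of 23 and 24 fragments and a median fold of 4.34 and 4.64. The local background, which the caller takes from the surroundings of each site, was the measure that set the groups apart. Given as a multiple of the genome-wide background, its median was 1.43 and 1.48 beside constant chromatin and 1 in both libraries farther away. The local background was at the genome-wide level for 18.9% and 17.0% of the regions beside constant chromatin, and for 74.3% and 72.2% of the distant ones. The surroundings of a region beside constant chromatin hold an OCR by the rule itself, so this difference is a description.

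**Figure D2:**
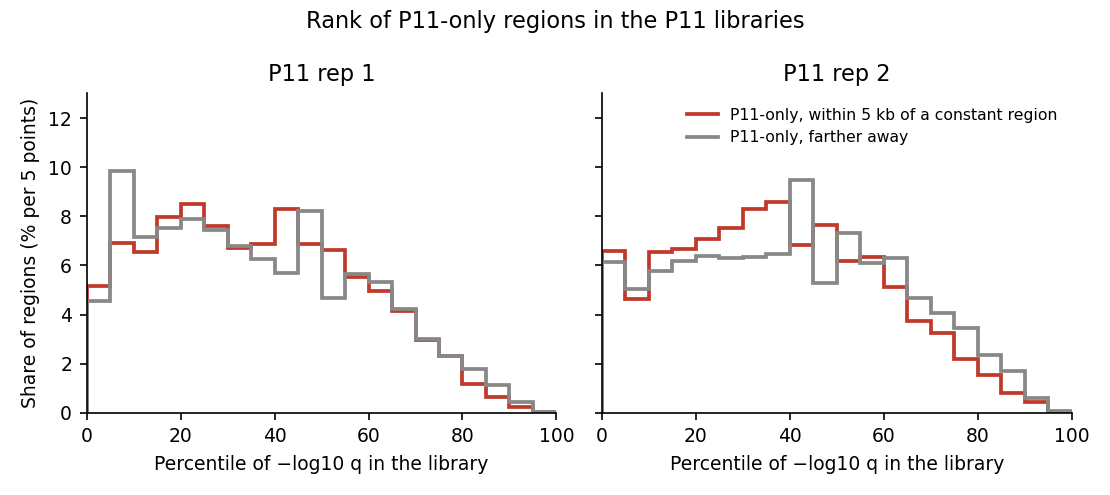
Percentile of −log10 q within each P11 library for P11-only regions beside constant chromatin (red, 9633) and farther away (grey, 14162), as the share of regions per 5 points. Both sets lie mostly below the percentile of 60, and the distant regions have the larger share above 80.

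In width the regions were narrow. The median was 394 bp (quartiles 308 and 508, range 151 to 1488), against 430 bp for the distant P11-only regions, 410 bp for those in chains and 709 bp for constant regions. The E21-only regions beside constant chromatin had a median width of 329 bp. Width went up with rank. Regions with a mean rank under 25 had a median width of 328 bp (n = 2906), those from 25 to 50 had 390 bp (n = 4346), those from 50 to 75 had 483.5 bp (n = 2028) and those above 75 had 605 bp (n = 353). The same 4 classes lay at median distances of 1800, 1862.5, 2026 and 2435 bp from their neighbour, so the median distance went up with the rank by −log10 q. Taken by distance, the ranks differed little. In P11 replicates 1 and 2 the median rank was 35.9 and 35.0 at 200 to 500 bp, and 36.0 and 38.8 at 4 to 5 kb.

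Both P11 libraries placed the regions at much the same spot. The summits lay a median of 54 bp apart, and within 100 bp in 70.7% of regions. Their ranks agreed less well, with a median gap of 13.8 points and a Spearman rho of 0.493 across the 9633 regions, which share the 2 libraries and are no independent replicates. For the distant P11-only regions rho was 0.520 and the median summit gap was 55 bp. Agreement in rank and summit was thus close to that of the distant regions.

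Absence at E21 is the absence of a call, not of accessibility. With the background of the constant neighbour in an E21 library, a call needed a median summit pileup of 16 fragments in replicate 1 and 18 in replicate 2. The pileup that the regions had at P11, scaled to E21 depth, had a median of 31.3 to 35.0 fragments, depending on the pair of libraries. The scaled pileup was above the limit for 96.3 to 97.8% of the regions, and at least 2 times the limit for 34.0 to 46.2%. These pileups belong to regions chosen for being called at P11, so the shares describe the size of the P11 signal against the limit and say nothing of why no call was made at E21. For E21-only regions set against the P11 limits in the same way, 93.1 to 96.1% were above them.

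The neighbours were the stronger elements of the pairs. At P11 the median rank of the constant neighbour was 67.6 in replicate 1 and 69.4 in replicate 2, with median pileups of 41 and 44 fragments. The P11-only region ranked a median of 28.4 and 29.5 points below its neighbour. In 1082 cases (11.2%, 10.6 to 11.9) it ranked above the neighbour in both P11 libraries. The E21-only regions did so over their neighbours in both E21 libraries in 11.3% of cases (10.5 to 12.2). The 2 intervals overlap, but they come from different libraries and cover counting error only.

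The 9633 regions shared 9172 constant neighbours, 11.3% of all constant regions. Of these, 8711 had 1 such region and 461 had 2, the most found. The 2 regions lay on opposite sides of the neighbour in 212 cases and on the same side in 249. The rule on chains limits how many can gather at 1 neighbour. The strongest and widest constant regions were less often the nearest constant region to one of the 9633. Regions in chains, and constant regions second to a nearer one, do not enter these shares. With constant regions cut into 4 classes of about equal size by mean rank, the share was 12.01, 11.9 and 12.04% in the lower 3 classes and 9.31% in the highest. By width it was 11.6, 12.5, 11.7 and 9.47% from the narrowest to the widest class.

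The design then asks whether a constant region changed its own signal between E21 and P11 when a P11-only region was called beside it. By −log10 q the share of neighbours higher at P11 was that of constant regions at large, and the share lower at P11 was slightly above it. The −log10 q weighs the pileup against the local background, on which the choice of neighbours bears. The shares are therefore a description and cannot decide the question. A constant region was called higher at P11 if both P11 libraries ranked it above both E21 libraries and the means of the stages were 25 points or more apart. Of the 9172 neighbours, 1128 were higher at P11, or 12.3% (11.6 to 12.99), and the background over all 81097 constant regions was also 12.3%. Lower at P11 were 850 neighbours, or 9.27% (8.69 to 9.88), against a background of 8.64% that lies just outside this interval. Ranked by −log10 q among constant regions only, 12.9% of the neighbours (12.2 to 13.6) were lower against a background of 11.6%, and 11.5% were higher against 12%. The median difference in the whole lists, P11 minus E21, was 0.32 points at the neighbours and 0.71 points at the other constant regions.

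By fold enrichment the neighbours were called lower more often, and by pileup higher more often, than the background. Ranked by fold, 1182 neighbours (12.9%) were lower at P11 against a background of 9.24%, and 913 (9.95%) were higher against 11.6%. Ranked by summit pileup, a measure added after the data were seen, 669 (7.29%) were lower against a background of 9.03%, and 1289 (14.1%) were higher against 11.6%. The same neighbours thus fell on opposite sides of the background by these 2 measures. The median difference was −2.59 points by fold and 1.68 points by pileup.

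The values per library show the same split. By −log10 q, the mean rank of the neighbours minus that of the other constant regions was −2.32 and −1.42 points at E21, and at P11 it was −2.33 and −2.38 points. The stages differed by less than 1 SD of the E21 libraries (−0.49 points, P11 minus E21, SD 0.64 at E21 and 0.034 at P11, n = 2, exact two-sided permutation p = 0.333). Ranked among constant regions only, the quantity was −2.79 and −2.15 points at E21, and −3.41 and −3.59 points at P11. There the difference was −1.03 points, over 2 times the SD of 0.45 at E21 and 0.13 at P11 (exact permutation p = 0.333), and it was −1.38 points with equal numbers of OCRs per library and −1.02 points when OCRs under a −log10 q of 5 were left out. By fold, the same quantity was −1.26 and −0.45 points at E21 and −4.85 and −5.05 points at P11. The 2 stages did not overlap, and the difference of −4.09 points was several times the SD of 0.57 at E21 and 0.15 at P11 (exact permutation p = 0.333, the smallest possible). Fold and −log10 q are both taken against the local background. The neighbours were chosen by OCRs called near them at P11 and not at E21. The ranks by these 2 measures are thus not independent of that choice, and they are a description. By pileup, it was −2.96 and −2.02 points at E21 and −0.046 and −0.023 points at P11, again without overlap. That difference was 2.45 points, with an SD of 0.66 at E21 and 0.016 at P11 (exact permutation p = 0.333). The sign of the difference therefore depended on the measure, and each difference was a few points on a scale of 100.

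**Figure D3:**
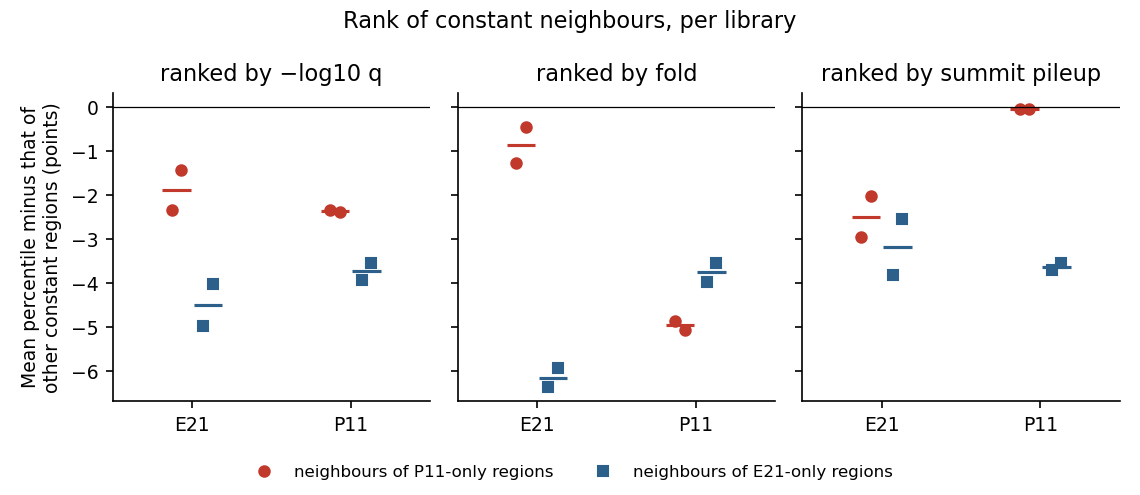
Mean percentile of constant neighbours minus that of all constant regions outside the same set of neighbours, per library, ranked by −log10 q, fold and summit pileup. The subtracted set thus differs between neighbours of P11-only and of E21-only regions. Points are libraries and lines are stage means (n = 2). For neighbours of P11-only regions (red circles) the P11 libraries lie about 4 points below the E21 libraries by fold and about 2 points above them by pileup, and by −log10 q all 4 libraries lie within 1 point of each other.

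Neighbours of E21-only regions moved the other way by fold. Their mean rank minus that of all constant regions outside this set was −6.36 and −5.93 points at E21 and −3.96 and −3.53 points at P11. The difference was 2.40 points (SD 0.31 and 0.30, n = 2, exact permutation p = 0.333). The choice of these neighbours bears on fold and −log10 q in the mirrored way. By pileup their difference between stages was −0.45 points, smaller than the SD of 0.89 at E21 (exact permutation p = 1). By −log10 q it was 0.76 points, with the stages not overlapping (SD 0.68 at E21 and 0.27 at P11, exact permutation p = 0.333). Of the 5284 neighbours of E21-only regions, 13.9% were higher at P11 by −log10 q (13.04 to 14.9) against the background of 12.3%, and 9.33% were lower against 8.64%.

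The local background moved with these differences. At the neighbours of P11-only regions its median, as a multiple of the genome-wide background, was 1.18 and 1.35 at E21, while the P11 libraries had 1.52 and 1.57 and were both above the E21 pair. The means were 1.27 ± 0.12 at E21 and 1.54 ± 0.037 at P11, a difference of 0.28 (SD, n = 2, exact permutation p = 0.333). These neighbours were chosen for a nearby OCR called at P11 and not at E21. That choice bears on the local background, so the test cannot decide whether the stages differ there, and the values are a description. The mirrored choice does so for neighbours of E21-only regions. At the other constant regions the E21 libraries had 1.24 and 1.41 and the P11 libraries 1.32 and 1.35, with the stages overlapping and a difference of 0.014 (exact permutation p = 1). At neighbours of E21-only regions the difference was −0.057, also with overlap (exact permutation p = 1). The span from which the caller took the background was not given in the sources used here, and it may include the P11-only region itself. Its part in the ranks by fold and by −log10 q was not tested.

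**Figure D4:**
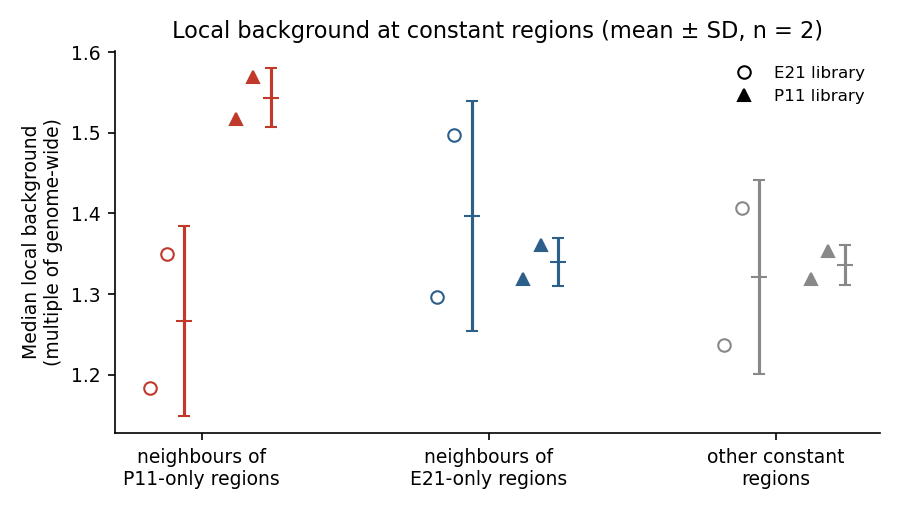
Median local background at constant regions in each library, as a multiple of that library's genome-wide background. The sets are neighbours of P11-only regions, neighbours of E21-only regions, and all constant regions except the neighbours of P11-only regions. This last set can hold constant regions beside P11-only regions in chains, and those second to a nearer constant region. Open circles are E21 libraries, filled triangles P11 libraries, and the bars mean ± SD (n = 2). The stages separate at the neighbours of P11-only regions, with 1.18 and 1.35 at E21 and 1.52 and 1.57 at P11, and overlap in the other 2 sets.

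The share of neighbours that were lower at P11 varied with the distance to the P11-only region. By −log10 q it was 5.94% for P11-only regions within 200 bp of the neighbour (n = 488), 11.4% for those at 2 to 3 kb (n = 1663) and 7.56% for those at 4 to 5 kb (n = 1535), with the background at 8.64%. By fold the share was 7.17% within 200 bp, 16.8% at 2 to 3 kb and 9.19% at 4 to 5 kb, with the background at 9.24%. By pileup it stayed between 5.12 and 8.42% over all distances, under the background of 9.03%. These shares were not tested against each other. The share of neighbours higher at P11 by −log10 q showed no steady order with distance. It was 12.5% within 200 bp, 14.0% at 200 to 500 bp, 13.3% at 500 bp to 1 kb and again at 1 to 2 kb, 9.92% at 2 to 3 kb, 10.9% at 3 to 4 kb and 12.8% at 4 to 5 kb, with the background at 12.3%. The share was 13.8% beside P11-only regions with a mean rank under 25 and 10.8% beside those above 75, so the share was not higher beside the stronger P11-only regions.

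**Figure D5:**
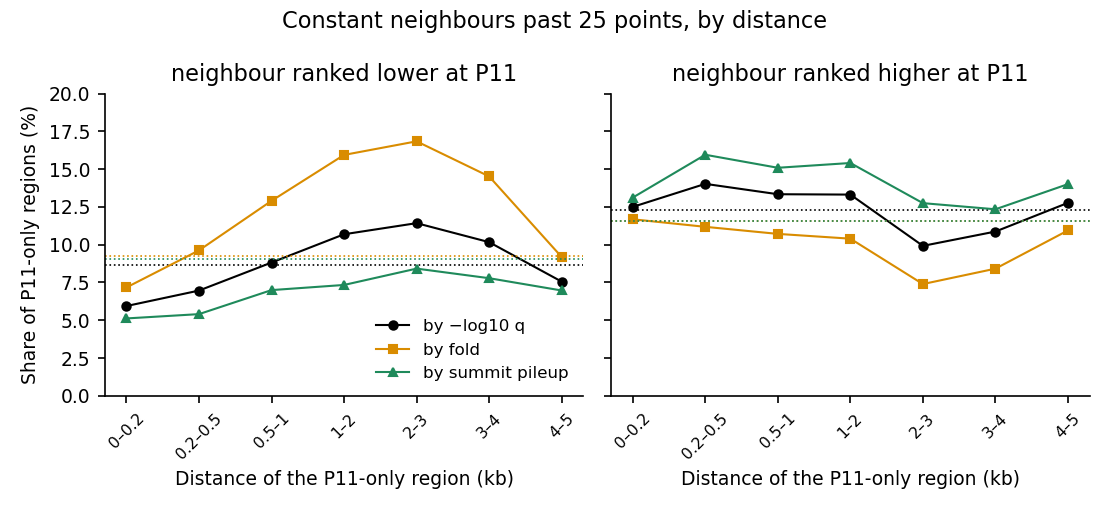
Share of P11-only regions whose constant neighbour was ranked lower (left) or higher (right) at P11 by at least 25 points, by distance in kb and by 3 measures; dotted lines give the background over all constant regions. By fold the share of lower neighbours peaks at 16.8% at 2 to 3 kb and is 7.17% within 0.2 kb.

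In the pairs that the rule kept within 1 kb, the reach of the neighbour's OCR toward the P11-only region overlapped between the stages. From a common centre it was a mean of 282 and 322 bp at E21 and 302 and 313 bp at P11. A neighbour's OCR that overlapped the P11-only region would have been merged with it, and the pair left out. The choice thus limits the facing side, so the test below cannot decide whether neighbours extend toward such regions. For P11-only regions within 1 kb, the neighbour's OCR extended farther from a common centre on the facing side than on the other side by a mean of 14.2 and 13.2 bp at E21, and by 5.97 and 7.65 bp at P11. The stages did not overlap, and the difference was −6.91 bp (n = 2, exact permutation p = 0.333), that is less asymmetry at P11. Neighbours of E21-only regions within 1 kb had it too, with 11.8 and 14.5 bp at E21 against 1.58 and 7.47 bp at P11, a difference of −8.66 bp (n = 2, exact permutation p = 0.333). Beyond 1 kb the E21 libraries had an asymmetry of 1.34 and −0.39 bp and the P11 libraries one of 1.69 and 0.46 bp.

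Some neighbours had an E21-only region near them as well. Of the 9172 neighbours, 848 (9.25%, 8.67 to 9.86) had an E21-only region within 5 kb, against 8.32% (8.12 to 8.52) of the other constant regions. In such places constant chromatin had a region that was called only before birth and another called only after it.

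All 20 chromosomes held such regions. There were 10.1 P11-only regions beside constant chromatin per 100 constant regions on chromosome 11, the lowest value, and 13.8 on chromosome 17, the highest. The share of P11-only regions outside chains that lay beside constant chromatin ran from 34.7% on chromosome 11 (31.3 to 38.2) to 52.1% on chromosome 12 (47.7 to 56.4). The number per E21-only region beside constant chromatin ran from 1.24 on chromosome 10 to 2.48 on chromosome 17. Every chromosome thus had more of the P11-only kind when all OCRs were used. Over all chromosomes together, there were 5617 against 5337 with equal numbers of OCRs per library. With a fold of at least 4 there were 3472 against 3863. Single chromosomes were not counted under those settings.

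Single places show the range of patterns, with positions on the rn6 build. The highest-ranked region was chr1:40629052-40629566, with ranks of 95.6 and 95.2, folds of 11.7 and 11.2 and pileups of 110 and 105 in P11 replicates 1 and 2. Its constant neighbour, 2528 bp below it, had ranks of 55.9 and 75.3 at E21 and 76.1 and 70.5 at P11, with the stages overlapping. The next by rank was chr11:86907947-86908556, with ranks of 94.9 and 95.9 and a neighbour 4044 bp away that ranked 91.8 and 92.5 at E21 and 94.6 and 90.2 at P11. A strong new call thus lay near an element that was strong at both stages.

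The other regions among the 8 of highest mean rank were chr7:35283699-35284299, chr5:48546690-48547690, chr8:5972969-5973784, chr4:145353486-145354230, chr16:23991279-23991899 and chr9:19527172-19528114. Their ranks were between 91.8 and 96.9 in both P11 libraries. All but the region on chromosome 16 lay over 1 kb from their neighbour. Those neighbours differed between stages by 2.63 to 6.70 points.

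The region chr16:23991279-23991899 was both among the 8 highest and among the 4 strong regions nearest to their neighbour, at 147 bp. It ranked 92.3 and 94.97 at P11, with pileups of 72 and 86. Its neighbour, chr16:23990440-23991131, ranked 54.5 and 65.7 at E21 and 45.6 and 39.0 at P11, with pileups of 38 and 49 at E21 and 27 and 26 at P11. Here the constant neighbour was lower in both P11 libraries, a difference of −17.8 points, while the P11-only region was the stronger of the pair.

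Close pairs also went in opposite directions. At chr4:159109444-159110142, 105 bp from its neighbour, ranks were 86.6 and 86.8, and the neighbour ranked 80.6 and 83.8 at E21 and 51.4 and 61.8 at P11, a difference of −25.6 points. At chr17:77652677-77653580, 116 bp from its neighbour, ranks were 87.0 and 93.1, and the neighbour ranked 39.2 and 71.7 at E21 and 87.5 and 88.7 at P11, a difference of 32.6 points. At chr5:169182700-169183399, 140 bp away, the neighbour differed by 5.13 points. Proximity and strength alone did not fix the neighbour's direction in these 4 pairs.

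The 4 strong regions farthest from their neighbour lay at 4928 to 4987 bp. At chr7:109718567-109719447 and chr8:87775123-87775854 the neighbour was lower at P11, with differences of −16.1 and −14.5 points. At chr18:32919885-32920860 it ranked 30.4 and 58.5 at E21 and 73.9 and 62.3 at P11, a difference of 23.6 points. At chr1:69736994-69738015 it differed by −1.94 points. The neighbours at the far limit were as mixed as those at 105 to 147 bp.

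Of the neighbours with 2 P11-only regions, the 3 with the highest summed rank were also mixed; they were ordered by rank after the values were seen, because 461 neighbours tied at 2. The constant region chr20:12238783-12239700, with P11-only regions at 2644 and 480 bp, ranked 15.2 and 54.1 at E21 and 70.7 and 53.1 at P11, and the stages overlapped. The constant region chr6:25147233-25147677, with P11-only regions at 905 and 3281 bp, ranked 65.3 and 70.0 at E21 and 80.04 and 64.4 at P11. The constant region chr1:260296329-260296745, with P11-only regions at 425 and 4269 bp on opposite sides, ranked 13.6 and 45.3 at E21 and 0.95 and 3.12 at P11. Its pileup was 21 and 33 fragments at E21 and 20 and 24 at P11, and its fold went from 3.79 and 5.63 at E21 to 2.48 and 2.58 at P11. That constant element was thus among the lowest ranks of both P11 lists, while its flanking regions ranked 57.5 to 83.6.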

How the data were processed

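ATAC-seq OCR lists of 2 E21 and 2 P11 libraries of rat RGCs were used, grouped by the labels. Per the study's methods, the authors used the ATAC-seq Integrative Analysis Package to map reads and to call OCRs, 1 list per library, and the submitters' processing notes name MACS2 and rn6. The caller's version and settings were not given in the sources used here. Each deposited list gives a score, the fold enrichment as a ratio, −log10 p, −log10 q and the summit. From the authors' fold and −log10 p, the summit pileup and the local background were solved, and the pileup came out whole, within 0.02 fragments, for 100% of OCRs. There were 0 duplicate lines. Without read counts in the lists, no count test was run.

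Regions were merged and chosen as the report states, and each library's best-ranked OCR in a region gave its rank. Values per stage are means ± SD (n = 2). Stages were compared by the exact two-sided permutation test over 3 splits. Wilson intervals (95%) count regions of the same libraries and cover counting error only. Separate litters of each age make the libraries biological replicates, but the labels give no batch. Python 3.11.15, pandas 2.3.3, numpy 2.4.6 and scipy 1.17.1 were used, and the scripts were tested on simulated data. Alternatives were other OCR limits, distances, chain gaps, overlaps, rank scales, chromosome X, each library left out and a replicate block. Named regions were the 8 of highest mean rank, the 4 nearest and the 4 farthest of those above the percentile of 75 in both P11 libraries, and the 3 neighbours with the most such regions. The regions, lists and tests were chosen with earlier results of these data known. Gene annotation and motifs need a genome of the rn6 build, which was not used here, so no region was assigned to a gene and no sequence is shown.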

Additional observations from a re-analysis of the deposited data

How the results depend on the processing

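The number of P11-only regions beside constant chromatin was 9633. It was 14674 with a distance of 10 kb, 5906 with 2.5 kb, 5617 with equal numbers of OCRs (120000), 3472 with a fold of at least 4 and 6129 with an overlap of at least 50%. Without 1 library it ran from 11635 to 14918, the latter without P11 replicate 1. The share of P11-only regions beside constant chromatin, 40.5%, was 36.8% with −log10 q of at least 5, 39.1% with a chain gap of 25 kb, 32.3% with equal numbers, 21.2% with a fold of at least 4, 28.9% with the larger overlap, and 40.9 to 46.1% without 1 library. With equal numbers there were 5337 E21-only regions of the mirrored kind, and without E21 replicate 1 there were 11672, more than the P11-only ones.

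The rank difference at the neighbours, −0.49 points by −log10 q, was 2.45 points by pileup in the whole list and 2.20 among constant regions. Without 1 library it ran from −0.13 to 0.33, and was positive without E21 replicate 2 (0.086), P11 replicate 1 (0.33) and P11 replicate 2 (0.010). The share of neighbours higher at P11, 12.3%, was 23.5% at 10 points (background 23.4%), 4.78% at 40 points (4.79%), 11.5% by rank among constant regions (12%), 9.95% by fold (11.6%), 9.46% by fold among constant regions (11.7%), 14.1% by pileup (11.6%) and 13.7% by pileup among constant regions (11.5%). It ran from 12.8 to 19.5% without 1 library, the highest without E21 replicate 2 (background 18.7%).

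The median rank, 36.0, was 35.2 with −log10 q of at least 5, 35.6 with equal numbers, 29.0 by fold, 44.8 by pileup and 26.1 to 38.4 without 1 library. The share within 1 kb, 30.6%, was 29.4% with −log10 q of at least 5, 29.2% with equal numbers, 25.7% with a fold of at least 4, 13.4% from summit to summit and 31.8 to 33.4% without 1 library. The background difference of 0.28 ran from 0.18 to 0.33 without 1 library. Ranks by pileup, and by fold among constant regions, were added after the data were seen. Annotation and motif alternatives were not run.

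The replicate numbers mark separate litters, and the same-numbered libraries did not deviate together (correlation 0.027 over the constant regions). With a replicate block, 12.7% of neighbours were higher (background 12.5%). The block did not enter the number of regions, the 40.5% share, the rank difference or the background difference, so it tested none of these.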
